A study of Mus musculus with 4 samples.

Results

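The lines 238N1 and 482N1 are a pair of mouse lung cancer cell lines that were both taken from lymph node metastases, and their gene expression was set against each other gene by gene. Genes were taken where 1 row per symbol, the one with the highest mean, stood above 0 in all 4 libraries of the study and averaged at least 1 FPKM (a level in sequenced fragments corrected for how long the transcript is and how deep the library was). This left 11454 genes of the 34147 symbols in the table. The 2 lymph node lines make up 2 of the 4 samples, and the other 2, 368T1 and 394T4, are non-metastatic lines from the lung that served only to show which of the lymph node lines stood away from them. All 4 lines came from 129S1/SvImJ mice, and their labelled tumour genotype, the same in each, includes p53flox/flox, floxed alleles that Cre recombinase, here carried by a lentivirus, deletes. The lung lines therefore share the engineered genotype of the lymph node lines. Whether the alleles were recombined in each line was not measured in the data used here. Each line has 1 library, so no spread between replicates exists, no test was made, and each difference below is a difference between these libraries. The labels describe cultured cancer cells and also call the samples tumours, and differences of tumour of origin, clone and culture cannot be told apart.

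In mouse models of this kind, lung adenocarcinomas begin as cells that resemble the alveolar lining and lose that identity as they progress, often taking on genes of the stomach and gut before turning towards a poorly differentiated or mesenchymal state. Keratins form the internal filaments of epithelial cells, the lineage factors Foxa2 and Cdx2 bind the control regions of endodermal genes, and signalling by TGF-beta and BMP ligands through Smad proteins drives matrix production and inhibitory Id and Smad genes. Collagens and matricellular proteins such as tenascin make up the extracellular matrix that carcinoma cells and fibroblasts deposit.

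The promoters of 4 genes that separate the lines are shown because Krt7 and Tm4sf1 head the named differences in each direction, Cdx2 is a lineage factor and Aebp1 leads the matrix genes. Each is the 250 bases before the transcription start, 5′ to 3′ on the gene's strand, from RefSeq on GRCm38.p6, a later build than the one used for gene positions elsewhere in the text. Krt7 lies at chr15:101412153-101412402 on the plus strand, Cdx2 at chr5:147307250-147307499 on the minus strand, Tm4sf1 at chr3:57301989-57302238 on the minus strand and Aebp1 at chr11:5861616-5861865 on the plus strand. Capitals mark matches, on either strand, to 1 of 7 motifs searched: TATAAA for the TATA box, GGGCGG for the GC box, TGANTCA for AP-1, GGAATG for TEAD factors, TGTTTAC for forkhead factors, CACCTG for E-box factors and the CArG box for SRF.
Krt7: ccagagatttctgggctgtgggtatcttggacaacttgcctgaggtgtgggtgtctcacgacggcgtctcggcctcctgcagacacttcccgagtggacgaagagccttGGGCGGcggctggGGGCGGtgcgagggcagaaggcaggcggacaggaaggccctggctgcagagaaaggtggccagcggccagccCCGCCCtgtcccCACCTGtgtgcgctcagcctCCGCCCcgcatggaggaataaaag
Cdx2: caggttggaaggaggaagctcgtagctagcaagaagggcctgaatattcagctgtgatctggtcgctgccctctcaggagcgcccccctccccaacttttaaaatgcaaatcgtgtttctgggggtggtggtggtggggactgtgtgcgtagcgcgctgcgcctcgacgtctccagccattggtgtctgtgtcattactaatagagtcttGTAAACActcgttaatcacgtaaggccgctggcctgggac
Tm4sf1: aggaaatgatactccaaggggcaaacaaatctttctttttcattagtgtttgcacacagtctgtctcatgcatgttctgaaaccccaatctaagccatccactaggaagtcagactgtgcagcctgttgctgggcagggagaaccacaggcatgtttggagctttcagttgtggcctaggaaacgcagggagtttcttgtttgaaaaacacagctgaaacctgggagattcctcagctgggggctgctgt
Aebp1: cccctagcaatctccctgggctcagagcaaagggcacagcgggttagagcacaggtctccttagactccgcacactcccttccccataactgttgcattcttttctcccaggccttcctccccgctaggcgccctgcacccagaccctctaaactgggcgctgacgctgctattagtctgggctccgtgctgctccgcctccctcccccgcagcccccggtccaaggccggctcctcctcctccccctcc
The Krt7 window held 4 copies of GGGCGG and 1 of CACCTG. The Cdx2 window held 1 TGTTTAC on the opposite strand. The Tm4sf1 and Aebp1 windows held none of the 7, which says only that these letters are not in those windows. Among windows of all genes kept that had a RefSeq entry, 60.8% held GGGCGG, 14.9% CACCTG and 2.0% TGTTTAC.

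The 2 lymph node lines differed at least 4-fold in 151 of the 11454 genes, or 1.32%, counted as a difference of at least 2 on the log2(FPKM + 1) scale. That scale, on which all differences below are given as 238N1 minus 482N1, understates the change of genes with low levels. Of the 151, 47 genes (0.41% of all kept) were higher in 238N1 and 104 (0.908%) were higher in 482N1. At 2-fold the counts were 256 genes (2.24%) higher in 238N1 and 545 genes (4.76%) higher in 482N1. The 2-fold counts of the gene lists below stand beside these shares, and their numbers below 0 beside 54.5% of all genes kept. The imbalance held for genes above 0 in all 4 libraries, and with genes listed at 0 kept the 4-fold counts were 281 higher in 238N1 and 270 higher in 482N1. Over all genes kept the median difference was -0.05, with 45.5% of genes above 0. In 62 of the 151 genes the lower line stood under 1 FPKM, in 21 of those higher in 238N1 and 41 of those higher in 482N1. Of the 151, 140 were protein-coding. The other 11 were short RNA genes and pseudogenes, among them Gm12895 and Gm12896, which had identical values in each library and cannot be counted as separate genes.

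Both lymph node lines carried the metastatic label, yet 238N1 lay closer to the lung lines than to 482N1. Against 368T1, 238N1 differed at least 4-fold in 96 genes (0.838%) and against 394T4 in 70 genes (0.611%). For 482N1 the counts were 246 genes (2.15%) against 368T1 and 208 genes (1.82%) against 394T4. The lung lines differed from each other in 37 genes (0.323%). Spearman's rho across genes was 0.940 between 238N1 and 482N1, against 0.943 and 0.965 for 238N1 with the lung lines and 0.901 and 0.926 for 482N1 with them. Genes are not independent replicates, and all these pairs share libraries, so the values are descriptions.

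**Figure D1:**
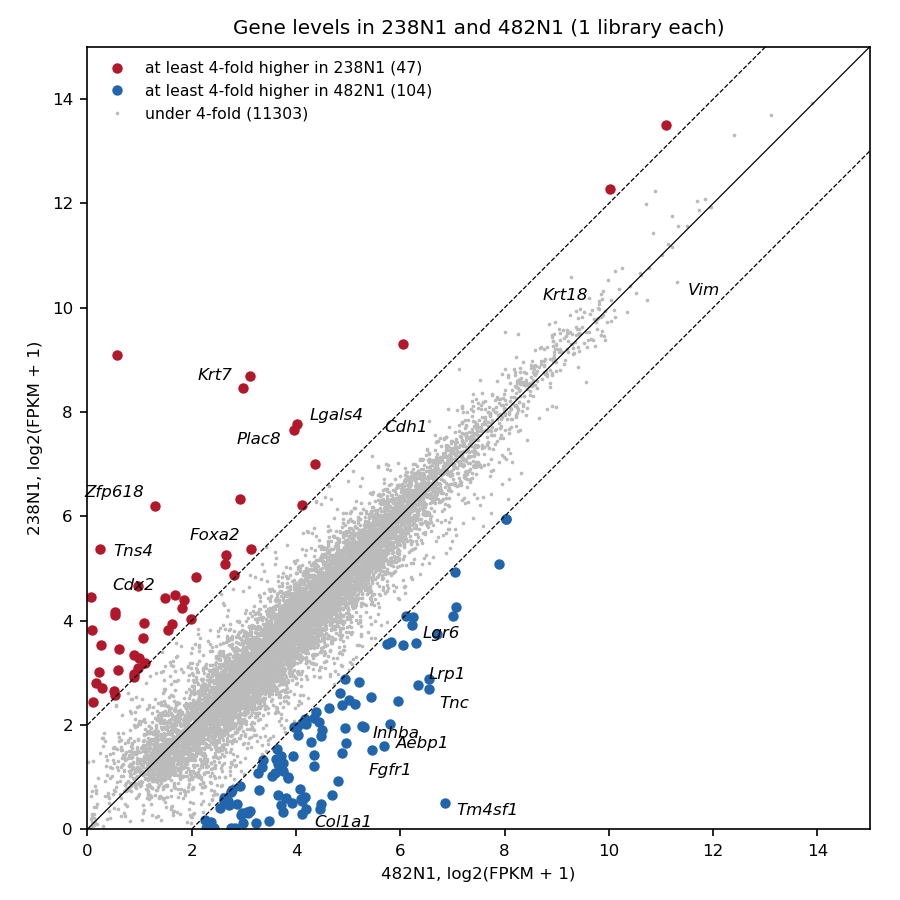
Level of each of the 11454 genes in 238N1 (vertical axis) and 482N1 (horizontal axis), both as log2(FPKM + 1), with the line of equality and dashed lines at 4-fold. The 47 genes higher in 238N1 lie above the upper dashed line and the 104 higher in 482N1 below the lower one, while the keratin Krt18, Cdh1 and Vim lie between them.

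Which line stood away from the lung lines was read from their range: a line was counted as departing when it lay at least 2-fold outside the range of 368T1 and 394T4. Of the 151 genes, 482N1 alone departed in 111 (73.5%), 238N1 alone in 13 (8.61%), both in opposite directions in 6, both in the same direction in 4, and neither in 17. Among the 47 genes higher in 238N1, 482N1 alone departed in 29 (61.7%), so that most of them were genes that 238N1 and the lung lines had in common and 482N1 had at lower levels. Among the 104 genes higher in 482N1, 482N1 alone departed in 82 (78.8%) and 238N1 alone in 10. Over all genes kept, 482N1 alone departed in 717 (6.26%) and 238N1 alone in 140 (1.22%).

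**Figure D2:**
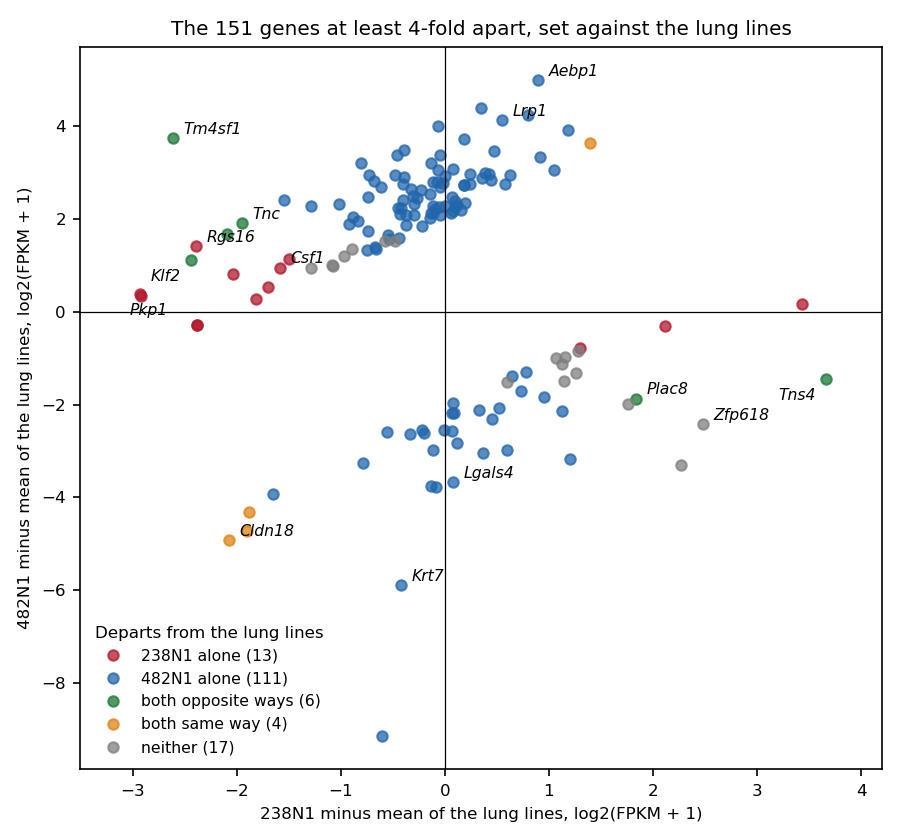
Each of the 151 genes at least 4-fold apart, placed by 238N1 minus the mean of the lung lines (horizontal axis) and 482N1 minus that mean (vertical axis), on the log2(FPKM + 1) scale. Points lie mostly near 0 on the horizontal axis and far from 0 on the vertical one, which are the 111 genes in which 482N1 alone departed.

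Epithelial genes were only partly kept by the lymph node lines. Of 24 epithelial surface and regulator genes listed, 14 reached 1 FPKM in 238N1 and 12 in 482N1, against 23 in 368T1 and 22 in 394T4. Listed at 0 were 5 of them in 238N1 and 7 in 482N1, and none in the lung lines. A 0 in this table can be a failed estimate, so the numbers reaching 1 FPKM may be too low. Sfn, an epithelial 14-3-3 protein, stood at 1.85 FPKM in 238N1 and 0.567 FPKM in 482N1, against 59.9 and 45.4 FPKM in the lung lines. Krt18 and Cdh1, a filament and a junction gene of simple epithelia, were at high levels in both. Not every such gene was: Krt7 was low in 482N1, and Cldn18 was below the lung lines in both, as given below. Krt18, which pairs with Krt8 in simple epithelia, stood at 1015 FPKM in 238N1 and 890.1 FPKM in 482N1, against 1450 and 1231 FPKM in the lung lines. Cdh1, the adhesion protein E-cadherin, stood at 173.8 FPKM in 238N1 and 104.4 FPKM in 482N1, against 108.7 and 155.1 FPKM in the lung lines. Epcam, another epithelial surface protein, was low in both, at 4.13 FPKM in 238N1 and 4.76 FPKM in 482N1, against 54.0 and 34.3 FPKM in the lung lines. Vim, the mesenchymal filament protein vimentin, stood at 1437 FPKM in 238N1 and 2533 FPKM in 482N1 (difference -0.82), and Hmga2, a chromatin protein of advanced lung tumours in such mice, at 163.3 FPKM in 238N1 and 202.3 FPKM in 482N1 (-0.31). Krt18, Cdh1, Epcam, Vim and Hmga2 were each less than 2-fold apart, unlike Krt7, Krt19, Krt23, Muc1 and Cldn18, which are given below. Sfn also stayed under 2-fold on the log2(FPKM + 1) scale (0.86), which understates the change at such low levels. Its FPKM values themselves lay more than 2-fold apart. Nkx2-1, the lung lineage factor, stood at 0.0619 FPKM in 238N1 and was listed at 0 in 482N1, against 2.42 FPKM in 368T1 and 4.00 FPKM in 394T4. Trp53, the gene engineered to be deleted, stood at 1.57 FPKM in 238N1 and was listed at 0 in 482N1, against 0 in 368T1 and 2.74 FPKM in 394T4. A gene level says nothing here about which exons the reads came from.

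Krt7, a keratin of simple ducts and glands whose promoter is given above, headed the named genes higher in 238N1. It lies at chromosome 15, 101241474 to 101260744 (mm9). It stood at 349.6 FPKM in 238N1 and 6.90 FPKM in 482N1, against 456.0 FPKM in 368T1 and 480.0 FPKM in 394T4, a difference of 5.47 between the lymph node lines. 238N1 and both lung lines were high and 482N1 alone was low. No other keratin kept differed as far. Of 8 kept, Krt7 included, 3 (37.5%) were at least 2-fold higher in 238N1 and none was so in 482N1. Over all genes kept the shares were 2.24% and 4.76%. Their median difference was 0.62. Krt23 stood at 74.5 FPKM in 238N1 and 21.3 FPKM in 482N1, and Krt19 at 738.8 FPKM in 238N1 and 257.1 FPKM in 482N1. The keratin median was 0.33 without the mean filter. Of 15 epithelial surface and regulator genes kept of 24 listed, 13 were above 0, beside 45.5% of all genes kept. Of the 15, 1 (6.67%) reached 2-fold, Muc1, a membrane mucin, at 19.2 FPKM in 238N1 and 5.03 FPKM in 482N1. The median of that list was 0.60, and 0.28 with a pseudocount of 5 or with genes listed at 0 kept and 0.33 without the mean filter. Cadherins leaned to 482N1: of 19 kept, 13 lay below 0, 5 were at least 2-fold higher in 482N1 and 1 in 238N1, with a median of -0.54. Of 19 tight junction genes kept, 4 were at least 2-fold higher in 238N1 and 3 in 482N1, with a median of 0.34.

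Tns4 (chromosome 11, 98926992 to 98950620), a tensin that links integrins to the cell skeleton, behaved differently from Krt7. It stood at 40.1 FPKM in 238N1 and 0.186 FPKM in 482N1, against 1.77 FPKM in 368T1 and 2.80 FPKM in 394T4, a difference of 5.12. Here the lymph node lines lay on opposite sides of the lung lines. Plac8, a small cysteine-rich protein, did so too, at 201.6 FPKM in 238N1 and 14.5 FPKM in 482N1, against 62.2 and 50.0 FPKM in the lung lines (3.70). Fermt1, an integrin activator at focal adhesions, stood at 16.3 FPKM in 238N1 and 0.442 FPKM in 482N1, against 9.83 and 11.001 FPKM in the lung lines. Apart from Tns4 and Fermt1, no focal adhesion or tensin gene of the 22 kept was 2-fold higher in 238N1, and 1 was 2-fold higher in 482N1. These are 9.09% and 4.55% of the list, beside 2.24% and 4.76% of all genes kept. The list median was -0.13.

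Genes of the stomach, gut and liver had the highest median of the lists with at least 5 members kept, at 0.98 over 17 kept of 35 listed. Of the 17, 7 (41.2%) were at least 2-fold higher in 238N1 and 1 (5.88%) in 482N1, beside 2.24% and 4.76% of all genes kept. The list median was 1.48 with a pseudocount of 0.1 and 0.53 without the mean filter. It was 0.68 at a mean of at least 5 FPKM and 0.32 with a pseudocount of 5, and in these settings the keratin median was higher, at 0.90 and 0.58. Lgals4, a galectin of the gut lining, stood at 216.0 FPKM in 238N1 and 15.2 FPKM in 482N1, against 186.4 and 224.8 FPKM in the lung lines (3.74). Cdx2, the homeobox factor of intestinal identity, stood at 20.5 FPKM in 238N1 and 1.80 FPKM in 482N1, against 18.6 and 19.2 FPKM in the lung lines (2.94). For both, 238N1 lay within 2-fold of the lung lines and 482N1 alone departed. Among all 7 genes at least 2-fold higher in 238N1, 482N1 alone departed in 3, 238N1 alone in 2 and neither in 2. Among all 47 genes at least 4-fold higher in 238N1, 482N1 alone departed in 61.7%. Ctse, a protease of gastric epithelium, stood at 100.7 FPKM in 238N1 and 31.0 FPKM in 482N1, and Anxa10, a gastric annexin, at 24.0 FPKM in 238N1 and 7.55 FPKM in 482N1. Tff1, a secreted peptide of gastric mucus cells, stood at 4.16 FPKM in 238N1 and 0.467 FPKM in 482N1. Pdx1, a factor of the foregut and pancreas, stood at 6.19 FPKM in 238N1 and 2.16 FPKM in 482N1, and both lung lines were below 482N1, at 1.11 and 1.52 FPKM. The exception was Apoa1, a lipoprotein gene of liver and gut, at 0.516 FPKM in 238N1 and 2.58 FPKM in 482N1.

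Among 18 genes of the lung lineage kept of 43 listed, 5 (27.8%) were at least 2-fold higher in 238N1 and 2 (11.1%) in 482N1. Over all genes kept the shares were 2.24% and 4.76%. The list median was 0.36. Foxa2, a forkhead factor of endoderm, stood at 40.6 FPKM in 238N1 and 7.77 FPKM in 482N1, against 37.0 and 40.6 FPKM in the lung lines (2.25). Cldn18, a claudin of lung and stomach, stood at 9.89 FPKM in 238N1 and 0.511 FPKM in 482N1, against 37.4 and 54.0 FPKM in the lung lines (2.85), so both lymph node lines were below the lung lines and 482N1 the further. Gata6, an endodermal factor, stood at 21.4 FPKM in 238N1 and 8.77 FPKM in 482N1. The direction was not shared by all: Aqp5, a water channel of alveolar and airway cells, stood at 81.4 FPKM in 238N1 and 191.4 FPKM in 482N1, against 29.2 and 22.9 FPKM in the lung lines, and Sox9, a factor of the embryonic lung tip, at 13.7 FPKM in 238N1 and 32.2 FPKM in 482N1.

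A few genes split all 4 lines rather than the lymph node pair. Zfp618, a zinc finger gene, stood at 72.6 FPKM in 238N1 and 1.45 FPKM in 482N1, against 1.79 FPKM in 368T1 and 61.5 FPKM in 394T4. The imprinted gene Peg3 stood at 13.2 FPKM in 238N1 and 0.0570 FPKM in 482N1, against 7.51 FPKM in 368T1 and 1.07 FPKM in 394T4, and the imprinted gene Snrpn at 5.24 FPKM in 238N1 and 0.420 FPKM in 482N1, against 0.259 FPKM in 368T1 and 4.21 FPKM in 394T4. For each, the lung lines also lay far apart, and neither lymph node line was counted as departing. For Peg3, 482N1 came close to it, at -0.97 from the lung range on the log2(FPKM + 1) scale, where 2-fold is 1. Of the 13 imprinted and oncofetal genes kept, Peg3 and Snrpn were the 2 that reached 4-fold, and the list median was -0.11. The interleukin receptor gene Il5ra (4.38), the zinc transporter gene Slc39a4 (3.69), the channel-like gene Tmc4 (3.63), the LIM protein gene Csrp2 (3.40), Neurl3 (2.86), Ly6a (2.82) and the adhesion molecule gene Vcam1 (2.77) complete the 15 largest named differences in that direction.

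**Figure D3:**
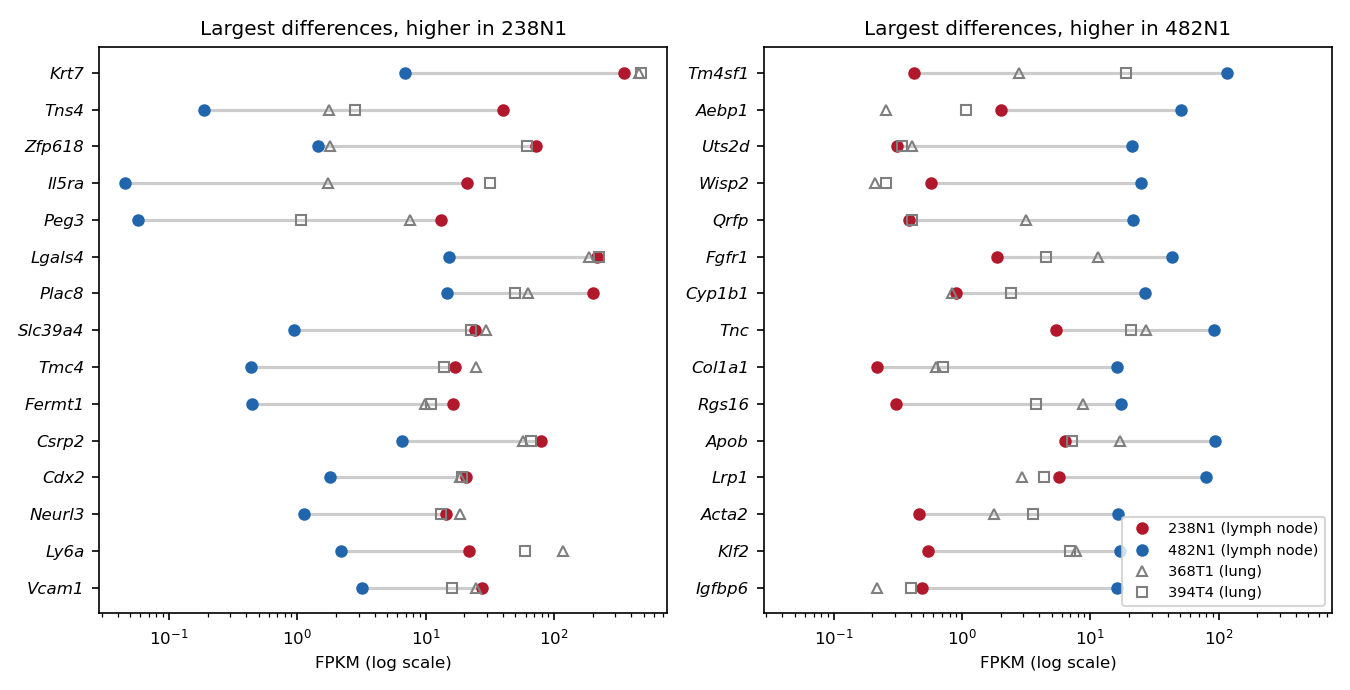
FPKM on a log axis of the 15 named genes with the largest difference in each direction, in 238N1, 482N1 and the lung lines 368T1 and 394T4, with a grey bar joining the lymph node lines. On the left most lung values sit with 238N1, as for Krt7 and Lgals4, and on the right many again sit with 238N1, as for Aebp1 and Lrp1, leaving 482N1 apart.

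Tm4sf1 (chromosome 3, 57089533 to 57105841), a membrane protein of the tetraspanin-like L6 family, headed the genes higher in 482N1. It stood at 0.421 FPKM in 238N1 and 115.6 FPKM in 482N1, against 2.79 FPKM in 368T1 and 18.9 FPKM in 394T4, a difference of -6.36. The lymph node lines lay on opposite sides of the lung lines. None of the other 22 genes kept in the tetraspanin and L6 list was 4-fold apart, 3 were at least 2-fold higher in 238N1, and the list median was 0.08. Fgfr1 (chromosome 8, 26624126 to 26686186), a receptor for fibroblast growth factors, stood at 1.86 FPKM in 238N1 and 43.2 FPKM in 482N1, against 11.5 FPKM in 368T1 and 4.55 FPKM in 394T4 (-3.95). It was the 1 receptor tyrosine kinase of 17 kept that reached 4-fold, beside 1.32% of all genes kept. Among ligands that such receptors bind, 8 (42.1%) of 19 kept were at least 2-fold higher in 482N1 and 1 (5.26%) in 238N1, with a median of -0.56. Over all genes kept the shares were 4.76% and 2.24%. Of the 8, 482N1 alone departed from the lung lines in 1, 238N1 alone in 2 and neither in 5. Csf1, the macrophage growth factor, stood at 4.57 FPKM in 238N1 and 31.2 FPKM in 482N1, against 15.3 and 16.02 FPKM in the lung lines, and here 238N1 alone departed. Pdgfa stood at 12.1 FPKM in 238N1 and 37.0 FPKM in 482N1, Hbegf, an EGF receptor ligand, at 27.6 FPKM in 238N1 and 72.5 FPKM in 482N1, while Fgf1 ran the other way, at 8.30 FPKM in 238N1 and 2.12 FPKM in 482N1.

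Genes of the interstitial matrix had the lowest median of the lists with at least 5 members kept, except at a mean of at least 5 FPKM, where it was -0.78 and that of the TGF-beta and BMP list -0.92. Of 20 interstitial collagens and processing genes kept, 10 (50%) were at least 2-fold higher in 482N1, 6 of them at least 4-fold, and none was 2-fold higher in 238N1. Over all genes kept the 2-fold shares were 4.76% and 2.24%. Of the 20, 19 lay below 0, beside 54.5% of all genes kept, with a median of -1.07. Aebp1 (chromosome 11, 5761950 to 5772091), a collagen-binding protein, stood at 2.01 FPKM in 238N1 and 50.4 FPKM in 482N1, against 0.257 and 1.07 FPKM in the lung lines (-4.09). Col1a1, a chain of type I collagen, stood at 0.217 FPKM in 238N1 and 16.3 FPKM in 482N1, against 0.632 and 0.712 FPKM in the lung lines (-3.83). Col6a2, a chain of microfibrillar collagen, stood at 1.73 FPKM in 238N1 and 28.6 FPKM in 482N1, against 0.452 and 0.691 FPKM in the lung lines (-3.44). In each of these, 3 lines were low and 482N1 alone was high. Lox, which cross-links collagen, stood at 0.00957 FPKM in 238N1 and 5.74 FPKM in 482N1, and P4ha3, a collagen hydroxylase subunit, at 1.54 FPKM in 238N1 and 11.3 FPKM in 482N1. In 9 of the 10 genes at least 2-fold apart, 482N1 alone departed from the lung lines, beside 78.8% of all genes at least 4-fold higher in 482N1.

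The matricellular proteins and proteoglycans gave a like count. Of 28 kept, 12 (42.9%) were at least 2-fold higher in 482N1, 6 of them at least 4-fold, and none in 238N1, with a median of -0.77. Tnc, the matrix glycoprotein tenascin C, stood at 5.41 FPKM in 238N1 and 92.2 FPKM in 482N1, against 27.2 and 20.9 FPKM in the lung lines (-3.86), with the lymph node lines on opposite sides. Wisp2, a secreted CCN family protein, stood at 0.570 FPKM in 238N1 and 24.7 FPKM in 482N1, against 0.211 and 0.255 FPKM in the lung lines (-4.03). Sdc3, a syndecan, stood at 12.3 FPKM in 238N1 and 103.4 FPKM in 482N1, against 14.98 and 16.4 FPKM in the lung lines (-2.97). Of 11 integrins kept, 4 were at least 2-fold higher in 482N1, among them Itgb5 at 21.99 FPKM in 238N1 and 67.1 FPKM in 482N1 and Itgav at 26.5 FPKM in 238N1 and 65.5 FPKM in 482N1. The 1 integrin that was 2-fold higher in 238N1 was Itga2, a collagen receptor chain, at 40.8 FPKM in 238N1 and 18.6 FPKM in 482N1. Of 26 proteases and inhibitors kept, 22 lay below 0, beside 54.5% of all genes kept, with a median of -0.40. Mmp2, a gelatinase, stood at 0.0862 FPKM in 238N1 and 8.38 FPKM in 482N1, while Serpine2, a protease inhibitor, was higher in 238N1, at 20.2 FPKM in 238N1 and 2.61 FPKM in 482N1.

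Several ligands, inhibitors and targets of the TGF-beta and BMP pathway were higher in 482N1. Of 30 genes kept, 14 (46.7%) were at least 2-fold higher in 482N1 and none in 238N1, beside 4.76% and 2.24% of all genes kept. Of the 30, 26 lay below 0, beside 54.5% of all genes kept, with a median of -0.96. Among the ligands, Inhba, the activin A subunit, stood at 2.95 FPKM in 238N1 and 37.4 FPKM in 482N1, against 3.81 and 4.58 FPKM in the lung lines (-3.28). Bmp7 stood at 10.8 FPKM in 238N1 and 77.4 FPKM in 482N1, against 11.05 and 1.26 FPKM in the lung lines (-2.73), and Bmp2 at 1.09 FPKM in 238N1 and 11.1 FPKM in 482N1, against 0.501 and 0.620 FPKM (-2.53). The secreted BMP inhibitor Grem1 was higher in 482N1 as well, at 0.0207 FPKM in 238N1 and 6.13 FPKM in 482N1. Among target genes, Id1 stood at 79.3 FPKM in 238N1 and 267.3 FPKM in 482N1, against 85.0 and 113.8 FPKM in the lung lines. Id3 stood at 55.0 FPKM in 238N1 and 191.4 FPKM in 482N1, and the inhibitory Smad gene Smad7 at 10.4 FPKM in 238N1 and 37.5 FPKM in 482N1, against 10.1 and 10.7 FPKM in the lung lines. In 10 of the 14, 482N1 alone departed. It also did so in 78.8% of all 104 genes at least 4-fold higher in 482N1, so such a count is not particular to this list.

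Of 16 mesenchymal transition genes kept, 6 (37.5%) were at least 2-fold higher in 482N1 and 1 (6.25%) in 238N1, with a median of -0.79. Over all genes kept the shares were 4.76% and 2.24%. The repressor of E-cadherin Snai1 stood at 0.513 FPKM in 238N1 and 5.15 FPKM in 482N1 (-2.02), just inside the 4-fold limit. Twist1, another such factor, stood at 11.9 FPKM in 238N1 and 30.4 FPKM in 482N1, against 3.14 and 1.56 FPKM in the lung lines, so both lymph node lines were above the lung lines. Cd44, a hyaluronan receptor, stood at 103.7 FPKM in 238N1 and 270.0 FPKM in 482N1. Of 24 contractile and SRF target genes kept, 1, Csrp2, was at least 4-fold higher in 238N1 and 3 were so in 482N1. At 2-fold the counts were 2 (8.33%) higher in 238N1 and 4 (16.7%) higher in 482N1, with a list median of -0.16. Acta2, smooth muscle actin, stood at 0.461 FPKM in 238N1 and 16.3 FPKM in 482N1, against 1.77 and 3.58 FPKM in the lung lines (-3.57). Myh10, a non-muscle myosin, stood at 5.13 FPKM in 238N1 and 27.5 FPKM in 482N1, against 16.6 and 21.4 FPKM in the lung lines, and there 238N1 alone departed. In the Wnt pathway 6 (27.3%) of 22 genes kept were at least 2-fold higher in 482N1 and 2 (9.09%) in 238N1. Wnt4 stood at 0.235 FPKM in 238N1 and 7.45 FPKM in 482N1 and Lgr6, an R-spondin receptor, at 14.01 FPKM in 238N1 and 73.7 FPKM in 482N1, whereas Wnt7a stood at 42.9 FPKM in 238N1 and 13.1 FPKM in 482N1 and Rnf43, a Wnt receptor ligase, at 6.61 FPKM in 238N1 and 1.29 FPKM in 482N1.

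The other genes among the 15 largest named differences higher in 482N1 have varied roles. Lrp1, an endocytic receptor for proteases and lipoproteins, stood at 5.75 FPKM in 238N1 and 79.8 FPKM in 482N1, against 2.96 and 4.36 FPKM in the lung lines (-3.58). Apob, a lipoprotein gene of liver and gut that is in none of the lists, stood at 6.32 FPKM in 238N1 and 92.8 FPKM in 482N1, against 16.96 and 7.16 FPKM in the lung lines (-3.68). Both were highest in 482N1. The neuropeptide genes Uts2d (-4.07) and Qrfp (-4.01), the cytochrome P450 gene Cyp1b1 (-3.87), the growth factor binding protein gene Igfbp6 (-3.53) and the transcription factor gene Klf2 (-3.55) complete the set with Rgs16. For Klf2 the lymph node lines lay on opposite sides of the lung lines, at 0.542 FPKM in 238N1 and 17.01 FPKM in 482N1, against 7.73 and 6.98 FPKM in the lung lines.

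Markers of fibroblasts and other stromal cells, some of which are also in the lists above, were higher in 482N1 too. The 20 listed summed to 0.825 FPKM in 238N1 and 46.9 FPKM in 482N1, against 5.92 and 6.06 FPKM in the lung lines. None of the 20 reached 1 FPKM in 238N1 and 8 did in 482N1, led by Col1a1 and Acta2. In 482N1 10 of the 20 were listed at 0, and Col1a2, Dcn, Lum, Fap, Dpt and Pdpn were listed at 0 in all 4 lines. A table in which 0 can be a failed estimate does not show that they were not expressed, and the part of stromal cells in these differences was not tested. Fewer cells of a type and less RNA per cell cannot be told apart in such bulk libraries. The 23 immune markers summed to 2.27 FPKM in 238N1 and 3.20 FPKM in 482N1, and the 14 endothelial markers to 2.47 FPKM in 238N1 and 3.17 FPKM in 482N1. In both of those lists 1 gene reached 1 FPKM in the lymph node lines, Cd68 among the immune and Eng among the endothelial markers.

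**Figure D4:**
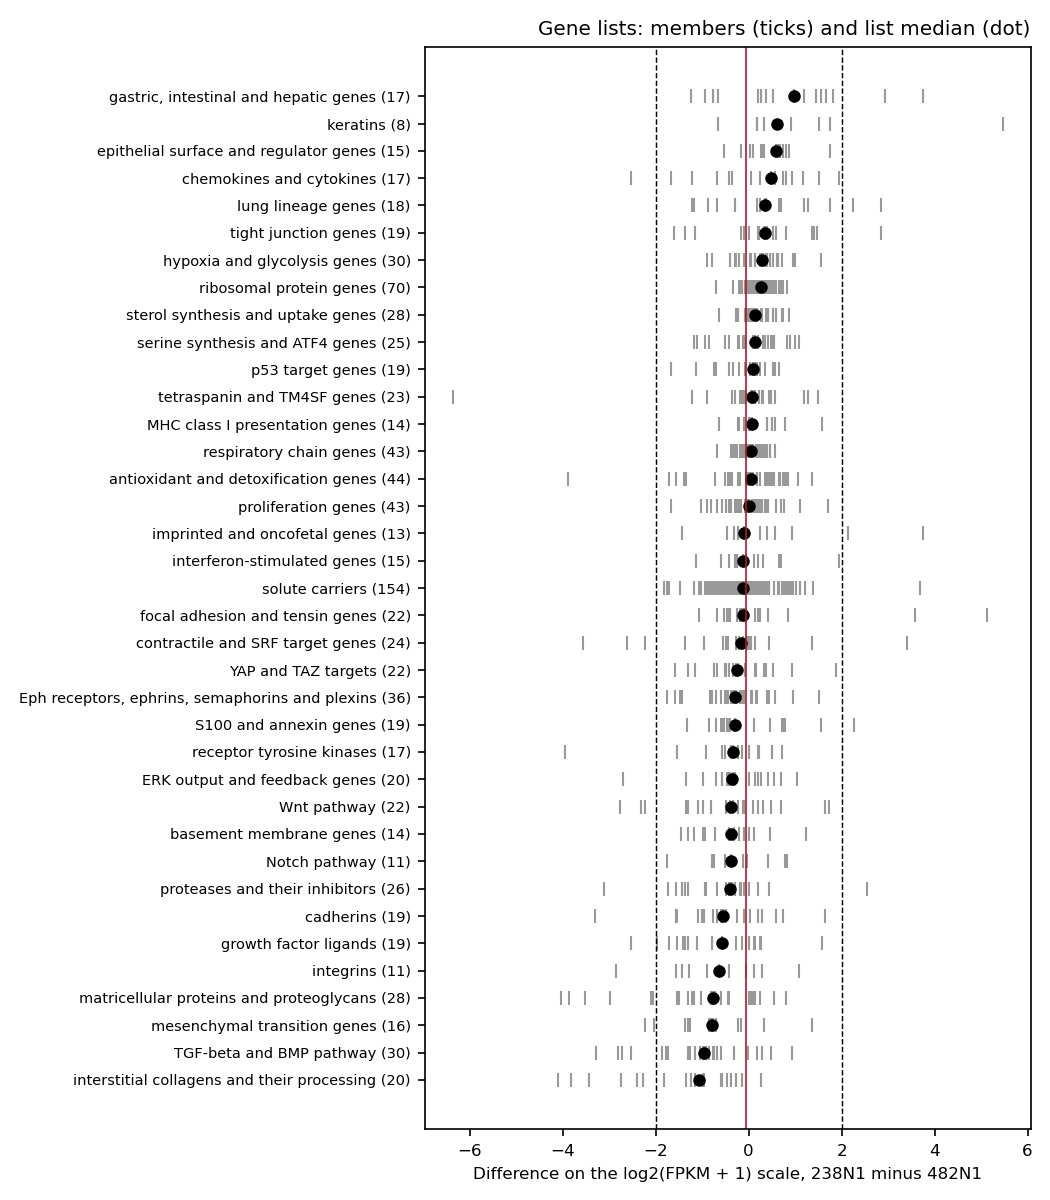
Differences on the log2(FPKM + 1) scale, 238N1 minus 482N1, of the members kept (ticks) of each gene list with at least 5, with the list median (dot), the number of members in brackets, the median of all genes (red line, -0.05) and dashed lines at 4-fold. Gastric, intestinal and hepatic genes have the highest median (0.98) and interstitial collagens the lowest (-1.07) under this setting. At a mean of at least 5 FPKM, keratins had the highest (0.90) and the TGF-beta and BMP pathway the lowest (-0.92). The medians of respiratory chain and proliferation genes lie close to 0.

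Beside 1.32% of all genes, none was 4-fold apart among the proliferation, respiratory chain, sterol synthesis, ribosomal protein, or hypoxia and glycolysis genes. Of 43 proliferation genes kept, 2 (4.65%) were at least 2-fold higher in each direction, with a median of 0.01. Over all genes the 2-fold shares were 2.24% higher in 238N1 and 4.76% higher in 482N1. Of 43 respiratory chain genes and 28 sterol synthesis genes none was 2-fold apart, with medians of 0.05 and 0.14. Of 70 ribosomal protein genes none was 2-fold apart, although 56 lay above 0, with a median of 0.27. Of 30 hypoxia and glycolysis genes 23 lay above 0, with a median of 0.29, and 1 was 2-fold higher in 238N1. These medians stand beside -0.05 for all genes, of which 45.5% lay above 0.

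Some genes set 238N1 apart. Of the 13 in which it alone departed, 3 were higher in 238N1. Clec2d, a lectin-like ligand, stood at 8.14 FPKM in 238N1 and 1.16 FPKM in 482N1, against 2.41 and 3.02 FPKM in the lung lines (2.08). The clone-named gene E130309D14Rik stood at 10.5 FPKM in 238N1 and 0.197 FPKM in 482N1, against 0.0808 and 0.0586 FPKM in the lung lines (3.27). Of the 10 lower in 238N1, Pkp1, a desmosome protein, stood at 0.695 FPKM in 238N1 and 15.8 FPKM in 482N1, against 11.4 and 12.4 FPKM in the lung lines (-3.31). Rgs16, a regulator of G protein signalling, stood at 0.304 FPKM in 238N1 and 17.2 FPKM in 482N1, against 8.72 and 3.80 FPKM in the lung lines (-3.80). In these genes 482N1 stayed under the 2-fold departure, though Rgs16 came close to it. E130309D14Rik and Clec2d were named after their values were seen.

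By chromosome, protein-coding genes varied in their median difference. Over all 9977 of them the median difference was -0.07. On chromosome 2 it was -0.48 over 776 genes, with 87.8% lower in 238N1, and on chromosome 18 it was -0.52 over 264 genes, with 84.1% lower in 238N1. Chromosomes 12 and 3 had medians of -0.30 and -0.25, and chromosome 6 had 0.30, with 75.8% of genes higher in 238N1. In windows of 20 Mb the medians ran from -0.58 to -0.36 over 10 windows of chromosome 2. Over 5 windows of chromosome 18 they ran from -0.60 to -0.44, so the shift extended along each of these chromosomes. On chromosome 6 they ran from -0.07 to 0.42 over 8 windows, and the shift was absent from the window at 140 to 160 Mb (-0.07). Set against the lung lines, the chromosome 2 median was 0.02 for 238N1 and 0.44 for 482N1, and that of chromosome 6 was 0.23 for 238N1 and -0.04 for 482N1. Chromosome 2 held 776 of the 9977 genes. Of the protein-coding 4-fold genes, it held 2 of the 40 higher in 238N1 and 18 of the 100 higher in 482N1. DNA copy number was not measured in the data used here, and its part in these medians was not tested.

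**Figure D5:**
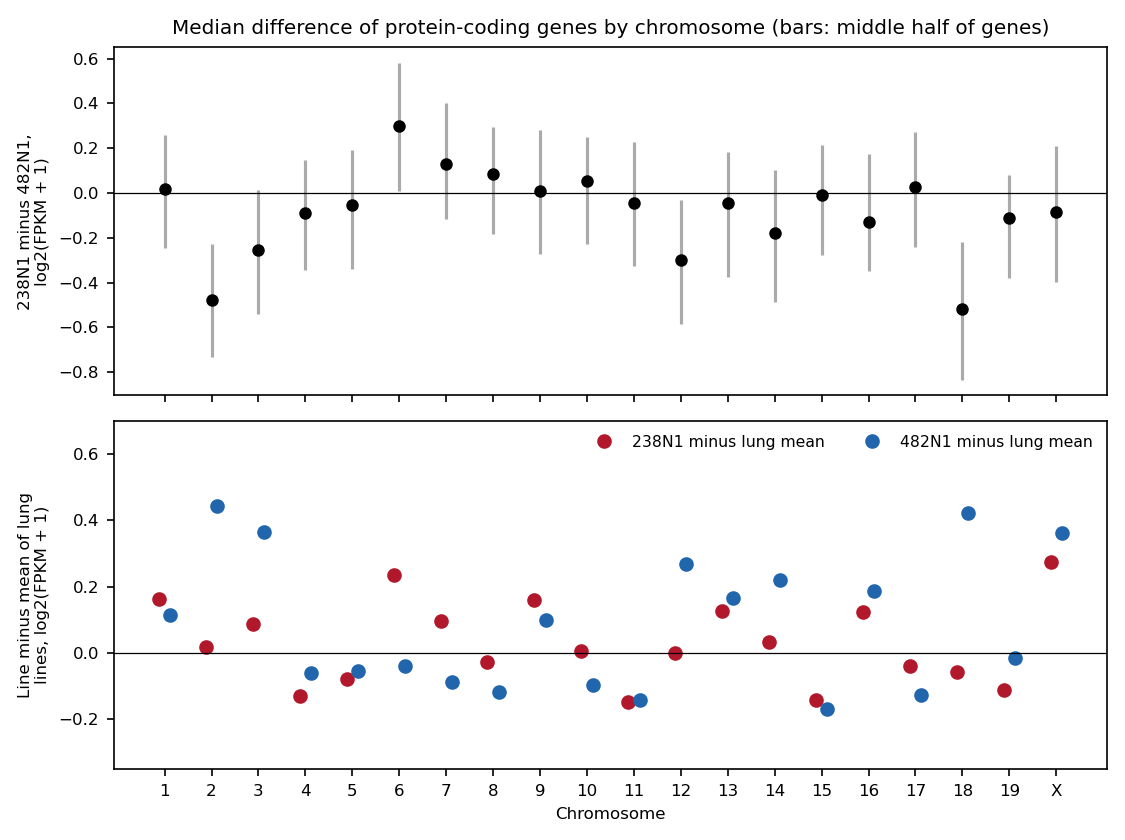
Upper panel, median difference of protein-coding genes by chromosome, 238N1 minus 482N1 on the log2(FPKM + 1) scale, with bars from the lower to the upper quartile of genes; lower panel, the median of 238N1 and of 482N1 minus the mean of the lung lines. Chromosomes 2 and 18 lie lowest in the upper panel (-0.48 and -0.52) and chromosome 6 highest (0.30). In the lower panel 482N1 stands furthest off the lung lines on chromosomes 2 and 18 (0.44 and 0.42). Chromosomes 3 and X follow (0.37 and 0.36).

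Neighbouring genes seldom reached 4-fold together. Runs of at least 3 consecutive genes kept, all at least 4-fold apart in 1 direction, were found on chromosomes 1 and 13. The chromosome 13 run, from 12883089 to 13284190, held the proliferin genes Prl2c2, Prl2c3 and Prl2c5, placental prolactin relatives that are near-identical and may share reads. Prl2c2 stood at 4.49 FPKM in 238N1 and 60.9 FPKM in 482N1, against 10.8 and 5.55 FPKM in the lung lines. The run on chromosome 1 held Kif1a, 2310007B03Rik and Sned1.

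Promoter motifs were counted for the 4-fold genes with a RefSeq window, 19 of the 47 higher in 238N1 and 60 of the 104 higher in 482N1. GGGCGG was held by 6 of 27 windows of the genes higher in 238N1 and by 41 of 77 windows of those higher in 482N1, or 22.2% and 53.2%, beside 60.8% of the windows of all genes kept and 32.7% of all windows in the RefSeq table. TGANTCA, the AP-1 letters, was held by 2 of 27 windows of the genes higher in 238N1 and by 10 of 77 of those higher in 482N1, beside 4.55% for all genes kept and 6.75% of all in the table. CACCTG was held by 18.5% of the windows of the genes higher in 238N1 and 24.7% of those higher in 482N1, beside 14.9% for all genes kept and 17.2% of all in the table. TATAAA was held by 18.5% of the windows of the genes higher in 238N1 and 14.3% of those higher in 482N1, beside 5.95% for all genes kept and 12.4% of all in the table. TGTTTAC was held by 1 window (3.7%) of the genes higher in 238N1 and 2 windows (2.6%) of those higher in 482N1, beside 2.0% and 3.17%. The CArG box was held by 2 windows (7.41%) of the genes higher in 238N1 and by none of those higher in 482N1, beside 1.2% and 1.47%. GGAATG was held by 3 windows (11.1%) of the genes higher in 238N1 and 8 windows (10.4%) of those higher in 482N1, beside 10.5% and 12.6%. A motif match is a description of letters, and some genes gave several windows.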

How the data were processed

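Total RNA from cultured cells was sequenced as paired reads of 100 bp from Illumina TruSeq libraries and aligned to mm9, per the labels' protocols, and TopHat is named without a version in the submitters' processing notes. The deposited values are FPKM per gene made by the authors, as the header says, and each line has its own column. How alignments became FPKM, and with which annotation, is not given in the sources used here. Read totals are unknown. The commonest ratio of values below 0.08 FPKM, shared within 1% by 152 of 843, 144 of 815 and 131 of 829 rows, put 482N1, 368T1 and 394T4 at an estimated 0.580, 0.608 and 0.550 of the depth of 238N1, if all were normalised alike, so 238N1 would resolve low levels best. No interval or detection limit is given.

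Of 37527 rows with 34147 symbols, the row with the highest mean was used per symbol. Of 12425 symbols averaging at least 1 FPKM, 971 were listed at 0 in at least 1 library and left out, since an exact 0 can be a failed estimate. For example, Ctnnb1 was listed at 0 in 3 of the lines. Of the symbols kept, 16 are stored as dates and were left unnamed. Differences were computed from the deposited FPKM on the log2(FPKM + 1) scale with no further scaling, and called at 4-fold. Positions come from GENCODE vM1 on NCBIM37, the assembly of mm9. The rule named the 15 largest differences in each direction among genes of at least 10 FPKM in the higher line and no clone name, and up to 4 members past 4-fold of each of 41 gene lists, or the 2 largest. Some items are not reported here. The rule also always named Krt7, Tns4, Tm4sf1, Fgfr1, Aebp1, Trp53, Nkx2-1, Hmga2, Cdh1, Epcam and Vim. Further list members at least 2-fold apart are given as examples chosen after their values were seen. The lines, genes and lists were chosen with earlier results of these data known, and the 2-fold counts were added after seeing the data. Alternatives were other pseudocounts, filters and scalings, a stricter departure, each lung line left out, rows of a symbol added up and protein-coding genes alone. Python 3.11.15, pandas 2.3.3, numpy 2.4.6 and matplotlib 3.10.9 were used, and the calculations were tested on simulated data.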

Additional observations from a re-analysis of the deposited data

How the results depend on the processing

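No paired analysis was possible because each line has 1 library. The counts depend most on the treatment of low values. The 47 genes higher in 238N1 became 86 with a pseudocount of 0.1, 16 with a pseudocount of 5 and 281 with genes listed at 0 kept. The 104 higher in 482N1 became 183, 30 and 270 under these settings, and 63 at a mean of at least 5 FPKM. With genes listed at 0 kept, more genes were thus higher in 238N1 than in 482N1, the opposite of the main counts. The 13 genes in which 238N1 alone departed became 50, 3 and 99 under the same settings, 20 without the lung line 368T1 and 4 at a departure of 4-fold. The 111 in which 482N1 alone departed became 34 with a pseudocount of 5, 69 at a mean of at least 5 FPKM and 301 with genes listed at 0 kept. In no setting did 238N1 alone depart in more genes than 482N1. Quantile normalization, median centring, summed rows, protein-coding genes alone and no mean filter kept each of these counts within 1.5 times. Of the named genes Epcam, which was not 2-fold apart, changed sign under quantile normalization, to 0.02, no other did, and 29 of 758 values lost 4-fold, 27 of them with a pseudocount of 5. Snai1 fell under 4-fold with both scalings, at -1.83 and -1.93. List medians moved by over 0.2 in 24 of 358 values. Those of interferon-stimulated and of imprinted genes changed sign under quantile normalization, to 0.00 and 0.04, that of p53 target genes with genes listed at 0 kept, and those of immune and endothelial markers without the mean filter. The cause of these shifts was not tested. With 1 library per line, biological spread and sampling error of a gene are unknown.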

Other observations

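Genes listed at 0 stand outside the counts above. In 238N1, 85 symbols were listed at 0 while 482N1 held at least 10 FPKM, and 37 of them were also at 0 in both lung lines. In 482N1, 134 symbols were listed at 0 while 238N1 held at least 10 FPKM, and 39 of them were also at 0 in both lung lines. Dlk1, an imprinted Notch-like ligand, was listed at 0 in 238N1 and at 97.2 FPKM in 482N1, and at 0 in both lung lines. Apoe, the lipid carrier apolipoprotein E, was listed at 0 in 238N1 and at 159.0 FPKM in 482N1, against 0 in 368T1 and 7.57 FPKM in 394T4. Vcan, a large matrix proteoglycan, was listed at 0 in 238N1 and at 21.1 FPKM in 482N1. Timp3, an inhibitor of matrix proteases, stood at 26.5 FPKM in 238N1 and was listed at 0 in 482N1, against 22.5 and 23.8 FPKM in the lung lines. These genes were named after their values were seen, and no fold is given against a value of 0. Ctnnb1, which encodes the junction protein beta-catenin, stood at 589.4 FPKM in 238N1 and was listed at 0 in 482N1 and in both lung lines, so a 0 in this table need not mean a silent gene.

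Sex-linked genes differed among the lines. Xist, the RNA that silences an X chromosome, stood at 27.3 FPKM in 238N1 and 35.4 FPKM in 482N1, against 0 in 368T1 and 14.02 FPKM in 394T4. The Y-linked genes Ddx3y, Kdm5d, Eif2s3y and Uty were listed at 0 in both lymph node lines. In 368T1 they stood at 1.86, 1.29, 5.23 and 0.924 FPKM. In 394T4 Ddx3y and Kdm5d stood at 0.0168 and 0.0141 FPKM, and Eif2s3y and Uty were listed at 0.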
